A study of Homo sapiens with 12 samples.

Results

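The 49 genes described here encode the machinery that copies chromosomal DNA: the proteins that mark and license origins, start the helicase, make and join the new strands, supply deoxynucleotides and put histones back on the daughter DNA. They were taken by gene name, for these roles and with no threshold on their measured values, from a table of RNA-seq counts that held 38021 gene names. All 49 names were found, and all 49 passed the filter on low counts that left 16838 genes for testing. RNA was sequenced from 786-O, a human renal cell adenocarcinoma line without functional VHL, and from WT8, a line derived from 786-O that expresses wildtype VHL. Both lines had received, by lentivirus and with puromycin selection, either a scrambled shRNA (shControl) or one that targets BMAL1 (shBMAL1). The groups were 786-O shControl, 786-O shBMAL1, WT8 shControl and WT8 shBMAL1, each with 3 replicates that the labels call biological. Whether the replicates of a group came from separate infections is not stated, so the p-values measure the spread between these samples. WT8 is 1 derived line, so a difference between the lines cannot be told apart from other differences that arose when WT8 was made. VHL is the substrate receptor of the ubiquitin ligase that removes HIF alpha subunits, and BMAL1 is the core circadian transcription factor that pairs with CLOCK. The study's methods list more than 1 shBMAL1 construct, and the labels do not say which was used. A change with shBMAL1 therefore cannot be told apart from other effects of the shRNA or of the culture that received it. The comparisons ask how the replication genes differ with shBMAL1 in each line and how the lines differ with each shRNA. They also ask whether the change with shBMAL1 differs between the lines.

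Replication is prepared in G1, when the origin recognition complex (ORC), CDC6 and CDT1 load the MCM2-7 helicase on DNA. At the start of S phase the kinase CDC7 with DBF4, and then CDC45, the GINS complex and MCM10, turn the loaded helicase into a running one, and polymerases alpha, delta and epsilon follow with the sliding clamp PCNA. Many of these genes are transcribed under E2F factors as cells pass from G1 to S phase and are low in cells that have left the cycle. In bulk RNA, fewer cells in S phase and less RNA of a gene per cell cannot be told apart.

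Library totals ran from 33182005 to 36477484 counts and were lowest in WT8 shControl, at 33182005 to 35383650. Levels are given below as CPM, the counts of a gene scaled to the size of its library after TMM normalisation, for replicates 1, 2 and 3 in this order. BMAL1, which the table lists under its older name ARNTL, stood at 13.5, 10.8 and 12.03 CPM in 786-O shControl and at 4.08, 3.68 and 4.05 CPM in 786-O shBMAL1. In WT8 it stood at 9.02, 10.3 and 8.40 CPM with shControl and at 1.49, 1.93 and 1.55 CPM with shBMAL1. VHL lay between 17.6 and 21.3 CPM in the 6 libraries of 786-O and between 631 and 1020 CPM in the 6 of WT8, so both genes followed their labels. VHL itself was lower in WT8 with shBMAL1, at 631 to 661 CPM, than with shControl, at 916 to 1020 CPM. Of the renal carcinoma markers, PAX8, PAX2, CA12, KRT8, KRT18 and VIM were detected in every library, while CA9 was at 0 CPM in WT8 and at most 1.41 CPM in 786-O. Of 6 markers of other cell types, CD3E and UMOD were at 0 in all 12 libraries, PTPRC, CDH5 and PECAM1 stayed under 1 CPM on average in every group, and CD68 lay between 17.3 and 42.97 CPM.

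The start regions of 6 members are shown as examples of genes with large, middling and small changes with shBMAL1 in WT8. Each line runs from 200 bases before to 30 bases after the start annotated by RefSeq on GRCh38.p14, 5′ to 3′ on the strand of the gene, and capitals mark letters of the E2F type (TTTCCCGC, TTTGGCGC, TTTCGCGC or TTTGCCGC on either strand). CDC45 (chr22:19479720-19479949, plus strand) changed most and holds none of these letters, CDC6 (chr17:40287679-40287908, plus strand), MCM6 (chr2:135876414-135876643, minus strand) and MCM7 (chr7:100101368-100101597, minus strand) are licensing genes that rose in WT8 and hold them, ORC4 (chr2:148021522-148021751, minus strand) moved least and holds none, and POLE2 (chr14:49688185-49688414, minus strand), which was higher in WT8 with shControl, holds them.
CDC45: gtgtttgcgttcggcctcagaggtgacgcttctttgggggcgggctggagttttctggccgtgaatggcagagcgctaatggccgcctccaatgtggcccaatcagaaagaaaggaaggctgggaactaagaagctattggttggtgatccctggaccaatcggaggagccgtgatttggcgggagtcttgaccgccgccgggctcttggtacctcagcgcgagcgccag
CDC6: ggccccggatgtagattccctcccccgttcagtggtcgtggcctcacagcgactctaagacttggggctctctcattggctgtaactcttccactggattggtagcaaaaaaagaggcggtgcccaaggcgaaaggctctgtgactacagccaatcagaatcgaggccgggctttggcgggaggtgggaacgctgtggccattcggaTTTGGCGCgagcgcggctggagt
MCM6: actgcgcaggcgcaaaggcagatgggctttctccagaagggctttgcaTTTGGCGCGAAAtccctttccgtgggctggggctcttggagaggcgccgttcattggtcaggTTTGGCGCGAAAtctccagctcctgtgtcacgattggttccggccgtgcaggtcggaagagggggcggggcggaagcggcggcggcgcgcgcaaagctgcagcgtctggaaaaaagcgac
MCM7: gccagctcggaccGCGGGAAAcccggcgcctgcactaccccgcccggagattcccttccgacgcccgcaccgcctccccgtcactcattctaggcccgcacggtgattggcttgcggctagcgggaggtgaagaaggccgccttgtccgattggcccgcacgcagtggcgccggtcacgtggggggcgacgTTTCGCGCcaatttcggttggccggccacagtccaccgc
ORC4: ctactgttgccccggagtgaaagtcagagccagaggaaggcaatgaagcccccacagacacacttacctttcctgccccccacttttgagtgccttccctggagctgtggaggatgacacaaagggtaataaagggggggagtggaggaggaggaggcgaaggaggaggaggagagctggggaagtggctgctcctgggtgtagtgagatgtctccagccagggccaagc
POLE2: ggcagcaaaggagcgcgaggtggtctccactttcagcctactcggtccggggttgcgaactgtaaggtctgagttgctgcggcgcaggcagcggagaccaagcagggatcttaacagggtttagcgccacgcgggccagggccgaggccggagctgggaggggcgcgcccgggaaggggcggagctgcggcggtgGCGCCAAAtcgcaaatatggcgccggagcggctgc
The longer runs in MCM6 are overlapping matches on both strands, which gives 4 matches at 2 places. RefSeq start regions were at hand for 43 of the 49 members, with MCM4, MCM5, GINS4, POLD3, RPA2 and RPA3 not analysed here. Over the full windows of 300 bases, 18 of the 43 members (41.9%) held E2F-type letters, against 908 of 27305 start regions of the same length (3.33%). The E-box CACGTG, to which CLOCK and BMAL1 bind, was in 6 of 43 (14.0%, against 7.43% of all): CHAF1A, FEN1, GMNN, MCM2, MCM7 and RPA1. The core of the hypoxia response element, ACGTG, which lies inside the E-box, was in 13 of 43 (30.2%, against 21.6%), and the cell cycle homology letters TTTGAA or TTCGAA in 3 of 43 (6.98%, against 16.6%). The start regions were not matched on base composition, and a match describes letters and does not mark a site. The lack of these exact letters does not mark the lack of a site either.

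WT8 shControl stood apart in nearly the whole set. The 49 genes together took 0.502% to 0.511% of the counts in 786-O shControl, 0.533% to 0.540% in 786-O shBMAL1 and 0.496% to 0.511% in WT8 shBMAL1, but 0.131% to 0.136% in WT8 shControl. The 3 WT8 shControl libraries lay far below the other 9, which lay between 0.496% and 0.540%. The summed level of 10 mitosis markers moved with the set, at 568 to 599 CPM in WT8 shControl against 2435 to 2633 CPM in the other 9 libraries, and its part in the results was not tested. All tests below are edgeR quasi-likelihood F tests fitted over all 16838 genes and all 12 libraries, with Benjamini-Hochberg adjustment over all genes, and a gene is called at an adjusted p under 0.1.

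With shBMAL1, 48 of the 49 genes rose in WT8 and 0 fell, while 32.9% of all genes tested were called higher and 36.9% lower there. The count of falls was also 0 at an unadjusted p under 0.05 and with DESeq2. The median log2 change of the 49 genes was 2.05, or 4.15-fold, against -0.04 over all genes tested, and 44 of the 49 rose more than 2-fold. In 786-O, 18 genes rose, 9 fell and 22 were not called, with 24.5% of all genes called higher and 24.4% called lower. The median there was 0.04 and no member changed 2-fold, the range being -0.30 to 0.78. Between the lines with shControl, 48 of the 49 genes were lower in WT8 and 1, POLE2, was higher, where 40.2% of all genes were called lower and 39.3% higher. The median difference was -2.14, or 4.41-fold lower in WT8, and 45 genes were more than 2-fold lower. The WT8 shControl libraries serve as 1 side of both this comparison and the one of shBMAL1 in WT8, so the sizes of these changes are not independent of each other.

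**Figure D1:**
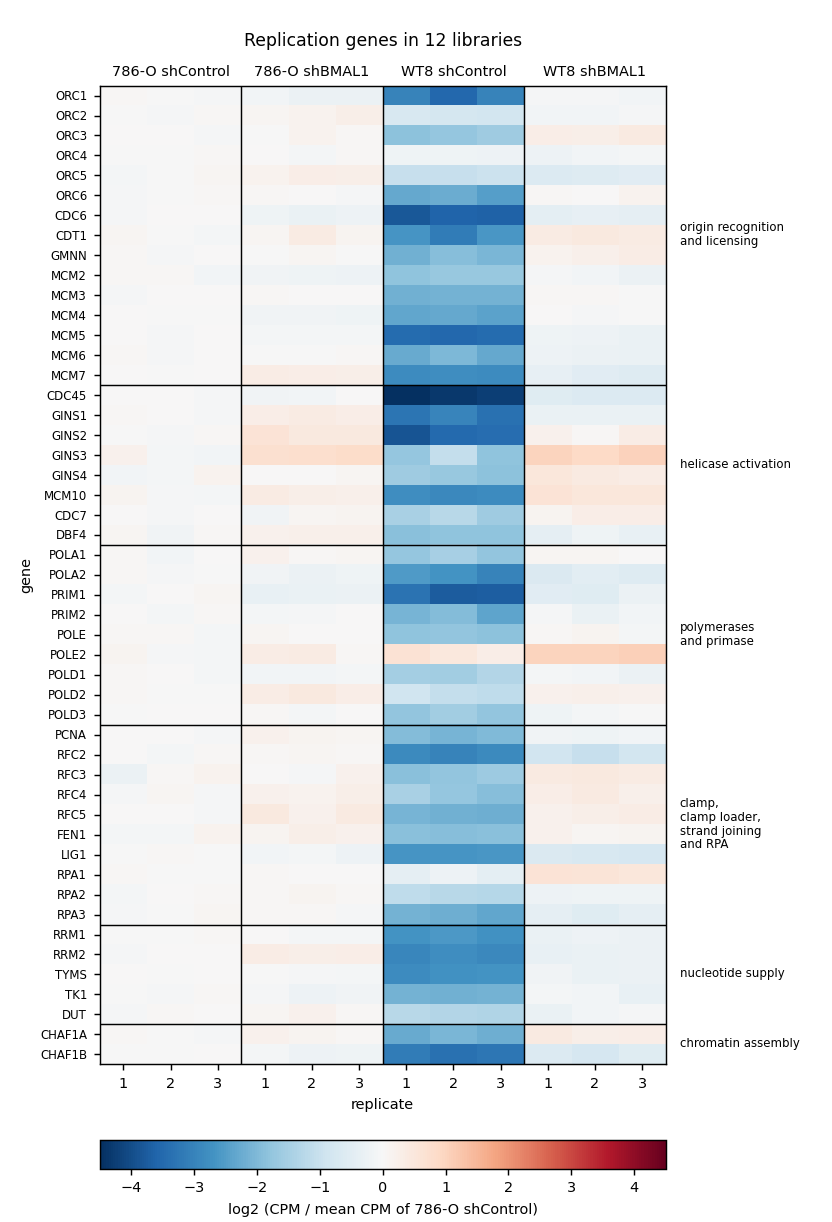
Levels of the 49 genes in each of the 12 libraries, as log2 of CPM divided by the mean CPM of 786-O shControl, with genes as rows grouped by role and the 3 replicates of each group as columns (blue, lower; red, higher). The 3 columns of WT8 shControl are blue for nearly every gene, with ORC4 and RPA1 pale and POLE2 red, while 786-O shBMAL1 and WT8 shBMAL1 lie closer to 0 for most genes, RFC2, GINS3 and POLE2 in WT8 shBMAL1 lying furthest from it.

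Among the 15 genes of origin recognition and licensing, 14 rose with shBMAL1 in WT8 and all 15 were lower in WT8 than in 786-O with shControl. The shares of all genes called so were 32.9% with shBMAL1 in WT8 and 40.2% between the lines with shControl. In 786-O, 4 rose and 4 fell (26.7% each), close to the shares of all genes called there, 24.5% higher and 24.4% lower. The largest change of the group in WT8 was that of CDC6, the ATPase that brings the MCM2-7 helicase to ORC. CDC6 stood at 101, 104 and 105 CPM in 786-O shControl, at 90.05, 84.97 and 87.9 CPM in 786-O shBMAL1, at 7.34, 8.47 and 8.32 CPM in WT8 shControl and at 76.5, 79.97 and 79.03 CPM in WT8 shBMAL1. Its 4 groups did not overlap, with WT8 shControl far below the other 3. CDC6 rose 9.76-fold with shBMAL1 in WT8 (log2 change 3.29, SE 0.06, adjusted p = 1.71e-31) and fell in 786-O (log2 change -0.24, SE 0.05, adjusted p = 0.000214).

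Its partner CDT1, which escorts the helicase to the origin, stood at 53.98, 49.6 and 47.6 CPM in 786-O shControl and at 53.1, 64.8 and 55.3 CPM in 786-O shBMAL1, which overlapped. CDT1 was at 8.07, 5.74 and 8.29 CPM in WT8 shControl and at 65.2, 68.4 and 64.8 CPM in WT8 shBMAL1, a rise of 8.94-fold. GMNN, the inhibitor that holds CDT1 in check after origins have fired, moved in the same direction in WT8, from 9.92 ± 0.90 to 47.8 ± 2.66 CPM (mean ± SD, n = 3). In 786-O, GMNN had means of 40.7 and 41.2 CPM and was not called. An origin factor and its inhibitor were thus both low in WT8 shControl.

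The 6 ORC subunits did not move alike. ORC1, the subunit whose level swings with the cell cycle, stood at 42.04, 40.3 and 39.2 CPM in 786-O shControl and at 5.08, 3.48 and 5.08 CPM in WT8 shControl, and at 39.4, 39.1 and 37.3 CPM in WT8 shBMAL1. That is a rise of 8.45-fold with shBMAL1 in WT8, against a fall in 786-O to 36.8, 33.7 and 33.7 CPM (log2 change -0.22, SE 0.08, adjusted p = 0.0183). ORC6 rose 5.33-fold and ORC3 4.15-fold in WT8, ORC2 rose 1.59-fold, and ORC5 rose 1.36-fold. ORC4 was the flattest gene of the 49. It stood at 36.1, 35.8 and 38.05 CPM in 786-O shControl, at 37.3, 34.8 and 37.8 CPM in 786-O shBMAL1, at 32.4, 32.1 and 30.9 CPM in WT8 shControl and at 31.3, 33.4 and 34.6 CPM in WT8 shBMAL1. The log2 change of ORC4 with shBMAL1 in WT8 was 0.06, with a 95% interval of -0.08 to 0.19 (adjusted p = 0.456), and the 2 WT8 groups overlapped. ORC4 was slightly lower in WT8 than in 786-O with shControl (log2 change -0.20, SE 0.06, adjusted p = 0.00511), a call lost without TMM scaling.

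The 6 subunits of the MCM2-7 helicase all rose with shBMAL1 in WT8, by 3.04-fold (MCM2) to 9.50-fold (MCM5). There, 32.9% of all genes were called higher. MCM5 stood at 21.1, 20.3 and 20.99 CPM in WT8 shControl and at 203, 201 and 189 CPM in WT8 shBMAL1, against 237, 228 and 235 CPM in 786-O shControl. MCM7 stood at 678, 672 and 679.6 CPM in 786-O shControl, at 856, 829 and 819.7 CPM in 786-O shBMAL1, at 94.4, 98.5 and 96.03 CPM in WT8 shControl and at 524, 477 and 450.2 CPM in WT8 shBMAL1. It was the licensing gene with the largest change in 786-O, where it rose 1.23-fold (log2 change 0.30, SE 0.04, adjusted p = 7.04e-07), and it rose 5.02-fold in WT8. MCM2 and MCM4 went the other way in 786-O. MCM4 fell from 403, 389.7 and 389 to 354, 349 and 341 CPM (log2 change -0.18, SE 0.04, adjusted p = 0.000485) and MCM2 from 200.3, 202 and 179 to 173, 169 and 165 CPM (log2 change -0.20, SE 0.05, adjusted p = 0.00175), while MCM3, MCM5 and MCM6 were not called. In 786-O, 1 of the 6 subunits thus rose, 2 fell and 3 were not called, beside 24.5% of all genes called higher and 24.4% called lower there. The values of MCM2 were not whole numbers in any of the 12 libraries, and 3 small RNA genes lie on the same strand within MCM7.

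Per kilobase of exon, with all annotated exons of a gene joined, the MCM levels in 786-O shControl were 136 CPM per kb for MCM7, 74.3 for MCM3, 58.8 for MCM6, 41.1 for MCM2, 40.0 for MCM4 and 32.1 for MCM5. With the length of the canonical transcript they were 274 CPM per kb for MCM7, 97.0 for MCM4, 88.3 for MCM3, 67.5 for MCM5, 64.8 for MCM6 and 56.4 for MCM2. MCM7 led on both lengths, and the order of the other 5 depended on the length used.

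**Figure D2:**
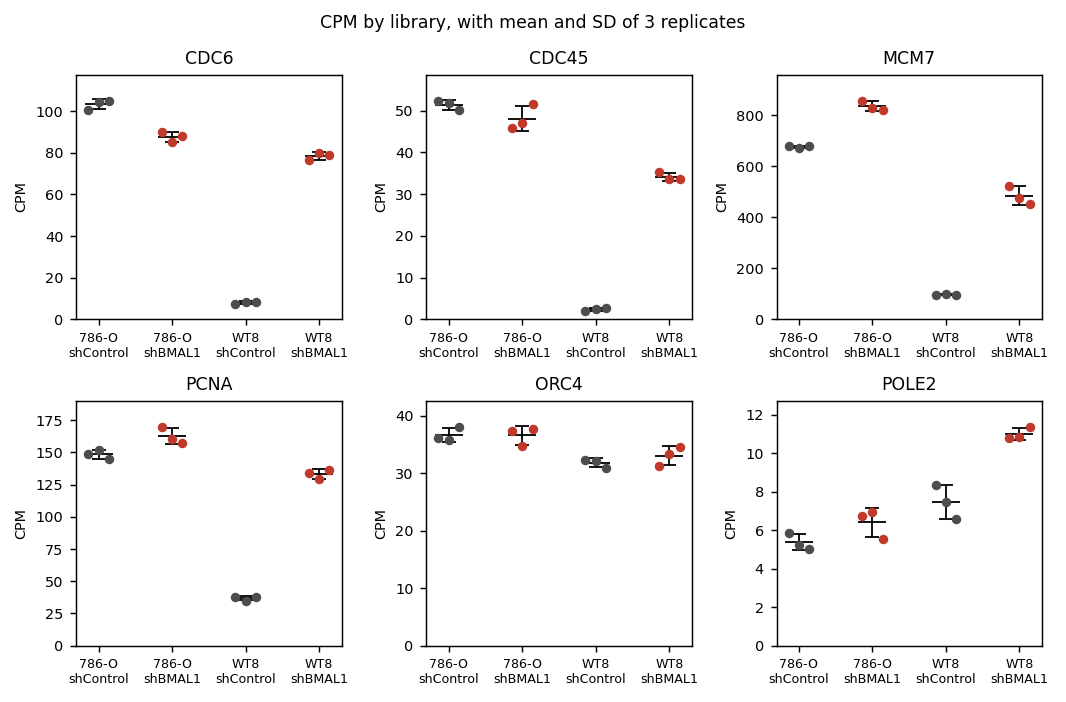
CPM of 6 members in each library on linear axes that start at 0, with points for the 3 replicates of each group (grey, shControl; red, shBMAL1) and lines for the mean and SD. CDC6, CDC45, MCM7 and PCNA are by far lowest in WT8 shControl among the 4 groups, and each lies lower in WT8 shBMAL1 than in both 786-O groups. ORC4 stays between 30.9 and 38.0 CPM, and POLE2 is higher in both WT8 groups than in 786-O shControl.

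All 8 genes that start the helicase rose with shBMAL1 in WT8, with a median log2 change of 2.69, and all 8 were lower in WT8 than in 786-O with shControl. Called so among all genes were 32.9% with shBMAL1 in WT8 and 40.2% between the lines with shControl. CDC45, which binds MCM2-7 and GINS to form the running helicase, changed most of the 49 genes. It stood at 52.3, 51.8 and 50.02 CPM in 786-O shControl, at 45.7, 47.1 and 51.5 CPM in 786-O shBMAL1, at 2.01, 2.52 and 2.75 CPM in WT8 shControl and at 35.3, 33.5 and 33.6 CPM in WT8 shBMAL1. The 786-O groups overlapped, and both WT8 groups lay below them. CDC45 rose 14.1-fold with shBMAL1 in WT8 (log2 change 3.81, SE 0.09, adjusted p = 1.64e-28) and was not called in 786-O, where its log2 change was -0.10 (95% interval -0.23 to 0.04).

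The GINS complex is a tetramer, and its 4 genes rose together in WT8, where 32.9% of all genes were called higher. GINS2 went from 3.02, 3.94 and 4.16 CPM in WT8 shControl to 51.1, 46.1 and 55.6 CPM in WT8 shBMAL1, a rise of 13.7-fold. GINS1 rose 7.46-fold, GINS3 5.61-fold and GINS4 4.42-fold. This group also held the largest rises of the set in 786-O. By edgeR 5 of 8 rose and 0 fell there, while 24.5% of all genes were called higher and 24.4% lower. CDC45, at an unadjusted p of 0.161, came nearest to a fall. GINS3 stood at 8.43, 6.80 and 6.63 CPM in 786-O shControl and at 11.97, 12.4 and 13.04 CPM in 786-O shBMAL1, which did not overlap (log2 change 0.78, SE 0.12, adjusted p = 2.13e-06). GINS2 rose there from 44.03, 42.5 and 46.2 to 66.99, 60.4 and 60.2 CPM, or 1.41-fold, and GINS1 rose 1.26-fold. GINS4, at 5.90 ± 0.63 and 6.11 ± 0.18 CPM, was not called in 786-O. MCM10, which helps the helicase open the DNA, rose 10.4-fold in WT8 and 1.22-fold in 786-O. The kinase CDC7 and its activator DBF4 had smaller changes in WT8, of 3.19-fold and 2.90-fold, and in 786-O DBF4 rose 1.16-fold while CDC7 was not called (log2 change 0.01, adjusted p = 0.937).

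The 9 genes of polymerases and primase all rose with shBMAL1 in WT8, and 8 of them were lower in WT8 than in 786-O with shControl. For all genes these shares were 32.9% higher with shBMAL1 in WT8 and 40.2% lower between the lines with shControl. PRIM1, the catalytic subunit of primase, which lays down the RNA primers, changed most. PRIM1 stood at 23.8, 25.1 and 26.4 CPM in 786-O shControl, at 19.9, 20.3 and 20.9 CPM in 786-O shBMAL1, at 2.53, 1.86 and 1.90 CPM in WT8 shControl and at 17.6, 17.3 and 21.1 CPM in WT8 shBMAL1. It rose 8.88-fold in WT8 (log2 change 3.15, SE 0.12, adjusted p = 3.53e-23) and fell in 786-O (log2 change -0.30, SE 0.09, adjusted p = 0.0047), the largest fall of the set there. PRIM1 overlaps NACA on the same strand, and how reads in the overlap were assigned is not stated. Its partner PRIM2 rose 3.98-fold in WT8 and was not called in 786-O. Of the polymerase alpha genes, POLA1 rose 3.32-fold in WT8 and POLA2 4.51-fold, and POLA2 fell in 786-O from 57.2, 53.8 and 54.9 to 49.9, 46.5 and 47.8 CPM (log2 change -0.20, SE 0.07, adjusted p = 0.0187).

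The polymerase delta genes POLD1, POLD2 and POLD3 rose 2.47-fold, 2.35-fold and 3.04-fold in WT8. POLD2, an accessory subunit, was at 145, 127 and 121 CPM in WT8 shControl, nearest of its group to its level in 786-O apart from POLE2. In 786-O, POLD2 had the largest change of its group, from 273, 264 and 262 to 333, 359 and 329 CPM (log2 change 0.35, SE 0.05, adjusted p = 2.41e-07). For polymerase epsilon, the catalytic gene POLE and the accessory gene POLE2 differed. POLE stood at 126 CPM on average in 786-O shControl, at 36.2 CPM in WT8 shControl and at 129 CPM in WT8 shBMAL1, a rise of 3.57-fold in WT8. POLE2 stood at 5.84, 5.23 and 5.03 CPM in 786-O shControl, at 6.75, 6.94 and 5.52 CPM in 786-O shBMAL1, at 8.35, 7.48 and 6.55 CPM in WT8 shControl and at 10.8, 10.9 and 11.4 CPM in WT8 shBMAL1. It was the only member of the 49 higher in WT8 with shControl (log2 change 0.48, SE 0.12, adjusted p = 0.00068), and it rose 1.47-fold with shBMAL1 in WT8 (log2 change 0.56, SE 0.11, adjusted p = 5.15e-05). In 786-O its change of 0.25 (adjusted p = 0.0967) was called, but not with DESeq2, where the adjusted p was 0.123.

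All 10 genes of the clamp, the clamp loader, strand joining and the single-strand binding protein RPA rose with shBMAL1 in WT8 and were lower in WT8 than in 786-O with shControl. Among all genes, 32.9% were called higher with shBMAL1 in WT8 and 40.2% lower between the lines with shControl. PCNA, the sliding clamp, stood at 148, 152 and 145 CPM in 786-O shControl, at 169.6, 161 and 158 CPM in 786-O shBMAL1, at 38.1, 34.9 and 37.8 CPM in WT8 shControl and at 134, 129 and 136 CPM in WT8 shBMAL1. That is a rise of 3.60-fold in WT8 and of 1.10-fold in 786-O. The clamp loader genes RFC2 to RFC5 rose 3.99-fold to 5.33-fold in WT8. RFC5 led in both lines, from 7.07, 6.67 and 6.55 to 34.4, 36.1 and 37.6 CPM in WT8 (log2 change 2.41, SE 0.08, adjusted p = 3.02e-24) and from 30.4, 30.5 and 29.3 to 41.3, 34.6 and 39.6 CPM in 786-O (log2 change 0.36, SE 0.07, adjusted p = 9.72e-05). FEN1, the flap nuclease, rose 4.09-fold in WT8 and 1.14-fold in 786-O. LIG1, the ligase that seals Okazaki fragments, rose 3.82-fold in WT8 and fell in 786-O from 78.05, 82.4 and 77.5 to 73.6, 75.01 and 67.3 CPM (log2 change -0.14, SE 0.06, adjusted p = 0.0385), 786-O groups that did not overlap. The call of LIG1 in 786-O was lost without replicate 2 of 786-O shControl (adjusted p = 0.149) and without replicate 3 of 786-O shBMAL1 (adjusted p = 0.21).

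The RPA trimer again showed unequal subunits. RPA1, the large subunit, stood at 159, 150.4 and 150.4 CPM in 786-O shControl, at 115, 131 and 114 CPM in WT8 shControl and at 234, 229 and 218 CPM in WT8 shBMAL1. It was 1.28-fold lower in WT8 with shControl (log2 change -0.35, SE 0.05, adjusted p = 5.73e-08) and rose 1.89-fold with shBMAL1 in WT8, to a level above both 786-O groups. RPA2 rose 2.03-fold and RPA3 3.40-fold in WT8, and none of the 3 was called in 786-O, where their log2 changes were 0.02 to 0.06.

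The 5 genes of nucleotide supply rose in WT8 and were lower in WT8 than in 786-O with shControl. Calls over all genes were 32.9% higher with shBMAL1 in WT8 and 40.2% lower between the lines with shControl. RRM2, the small subunit of ribonucleotide reductase, which makes deoxynucleotides in S phase, changed most in both lines. RRM2 stood at 223, 232 and 232 CPM in 786-O shControl, at 291, 273 and 283 CPM in 786-O shBMAL1, at 29.7, 32.7 and 30.8 CPM in WT8 shControl and at 181, 186 and 189.8 CPM in WT8 shBMAL1. It rose 5.97-fold in WT8 (log2 change 2.58, SE 0.05, adjusted p = 1.45e-31) and 1.23-fold in 786-O (log2 change 0.30, SE 0.04, adjusted p = 5.84e-07). The large subunit RRM1 rose 5.30-fold and TYMS, which makes thymidylate, 5.69-fold in WT8, and neither was called in 786-O. TYMS overlaps ENOSF1 on the opposite strand and its values were not whole in the 12 libraries. TK1, the thymidine salvage kinase, rose 3.93-fold in WT8 and fell in 786-O from 148, 146 and 156 to 144, 129 and 134 CPM (log2 change -0.14, SE 0.05, adjusted p = 0.0273), a call lost without replicate 3 of 786-O shControl (adjusted p = 0.118) or replicate 2 of 786-O shBMAL1 (adjusted p = 0.133). DUT, which keeps uracil out of DNA, had the smallest rise of the 5 in WT8, at 2.24-fold.

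Chromatin assembly was represented by 2 subunits of CAF-1, the chaperone that places histones on new DNA. CHAF1A rose in WT8 from 19.7, 22.9 and 20.8 to 125, 116 and 119 CPM, or 5.68-fold, and it rose 1.09-fold in 786-O. CHAF1B stood at 54.3, 54.6 and 55.5 CPM in 786-O shControl, at 51.1, 46.6 and 47.5 CPM in 786-O shBMAL1, at 6.14, 5.34 and 5.74 CPM in WT8 shControl and at 35.8, 32.1 and 37.8 CPM in WT8 shBMAL1. It rose 6.13-fold in WT8 (log2 change 2.62, SE 0.08, adjusted p = 1.54e-25) and fell in 786-O (log2 change -0.18, SE 0.07, adjusted p = 0.0264), a call lost without replicate 2 of 786-O shBMAL1 (adjusted p = 0.101). CHAF1B overlaps MORC3 on the same strand.

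In 786-O calls of both signs stood within every role but helicase activation. The genes that fell were ORC1, CDC6, MCM2, MCM4, POLA2, PRIM1, LIG1, TK1 and CHAF1B, by 0.14 to 0.30 on the log2 scale. Of the 18 rises, 8 lost their call without 1 library or another: CDT1 without replicate 2 of 786-O shBMAL1 (adjusted p = 0.366), DUT without the same library (0.427), CHAF1A and PCNA without replicate 1 of 786-O shBMAL1 (0.272 and 0.147), DBF4 without replicate 2 of 786-O shControl (0.138), ORC2 and RFC4 without replicate 3 of 786-O shBMAL1 (0.106 and 0.121), and POLE2 without replicate 2 of 786-O shBMAL1 (0.309), in edgeR fits of which the one with the highest adjusted p is given. The other 10 rises kept their call in all 12 such fits. A test for a change over 1.5-fold (glmTreat of edgeR) left 0 of these calls, with 1 member at an unadjusted p under 0.05, while the same test kept 46 of the 48 rises in WT8, all but ORC5 and POLE2.

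**Figure D3:**
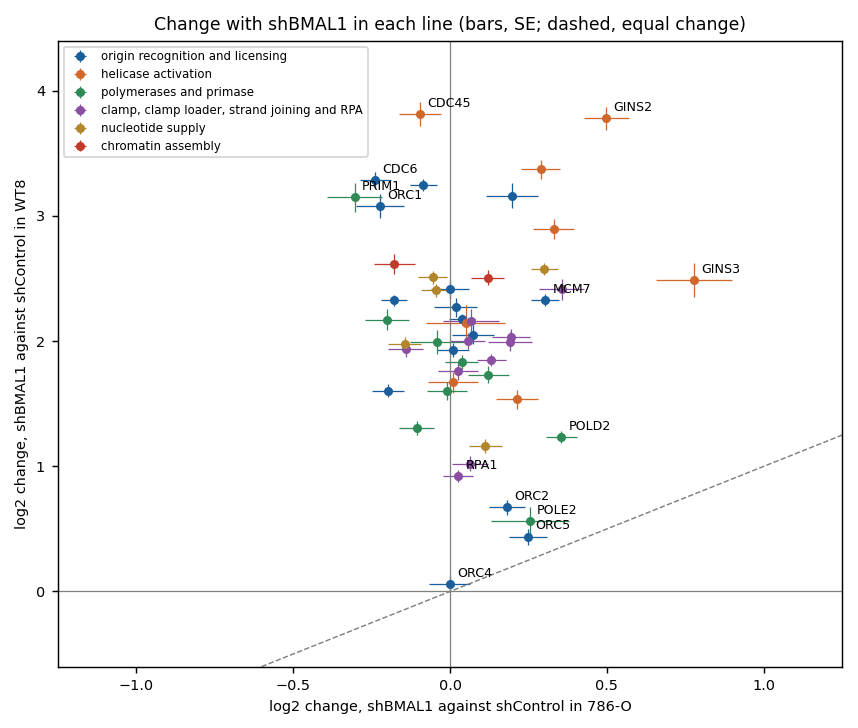
Log2 change with shBMAL1 in 786-O (horizontal axis) against that in WT8 (vertical axis) for the 49 genes, coloured by role, with bars for the SE and a dashed line where both changes would be equal. The genes spread over 0.06 to 3.81 in WT8 but only -0.30 to 0.78 in 786-O, and ORC4, ORC5, ORC2 and POLE2 lie nearest to the dashed line.

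The log2 change with shBMAL1 was higher in WT8 than in 786-O for 47 of the 49 genes by the test of the difference itself, and lower for 0, also at an unadjusted p under 0.05 and with DESeq2. Of all genes tested, 27.4% had a difference called higher and 28.5% lower. The median difference was 2.04 on the log2 scale. It was largest for CDC45 (3.91 ± 0.12, ± SE), CDC6 (3.53 ± 0.08), PRIM1 (3.46 ± 0.15), MCM5 (3.33 ± 0.07) and ORC1 (3.30 ± 0.12), all with adjusted p-values of edgeR at or below 5.93e-21. ORC4 and POLE2 were not called, with differences of 0.06 (95% interval -0.13 to 0.24) and 0.31 (95% interval -0.03 to 0.65). The 9 genes that fell in 786-O, among them CDC6, PRIM1 and ORC1, all rose in WT8, so their directions were opposite. Because nearly all members rose in WT8, this restates the falls in 786-O. The test for a change over 1.5-fold left 0 of those falls, and the share of all genes with opposite calls was not counted. The call of ORC5, with the smallest called difference (0.19, adjusted p = 0.0686), was lost with DESeq2 (adjusted p = 0.102), and by edgeR without replicate 3 of 786-O shControl (adjusted p = 0.176) and 4 other libraries left out in turn. POLE2 was called without replicate 2 of 786-O shBMAL1 (adjusted p = 0.0816) or replicate 1 of WT8 shControl (adjusted p = 0.0639).

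With shBMAL1 in both lines, the lines were much closer. Of the 49 genes 12 were higher in WT8, 23 lower and 14 not called, while 36.0% of all genes were called higher and 37.0% lower. The median difference was -0.10 and the range -0.97 to 0.78, so no member differed 2-fold. Without TMM scaling the median log2 difference of all genes in this comparison was 0.11 in place of 0.0049, and the split of the members became 18 higher and 18 lower. The largest deficits that remained in WT8 were those of RFC2, at 55.5, 48.2 and 56.03 CPM against 104, 105 and 103 CPM in 786-O shBMAL1 (log2 change -0.97, SE 0.06, adjusted p = 3.15e-17), ORC5 (log2 change -0.82, SE 0.06, adjusted p = 2.31e-14), MCM7 (log2 change -0.79, SE 0.04, adjusted p = 1.16e-17) and GINS1 (log2 change -0.63, SE 0.07, adjusted p = 1.37e-10). MCM7 in WT8 shBMAL1, at 450.2 to 524 CPM, lay below all 6 libraries of 786-O. On the other side, POLE2 was 1.72-fold higher (log2 change 0.78, SE 0.12, adjusted p = 2.59e-07) and RPA1 1.46-fold higher (log2 change 0.54, SE 0.05, adjusted p = 2.85e-12) in WT8. The other genes higher in WT8 were ORC1, ORC3, CDT1, GMNN, MCM4, GINS4, MCM10, CDC7, RFC3 and CHAF1A, by 0.15 to 0.37 on the log2 scale. Of these, ORC1 lost its call by edgeR without replicate 3 of 786-O shBMAL1 (adjusted p = 0.187), CDT1 and CDC7 without replicate 1 of that group (0.167 and 0.113).

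**Figure D4:**
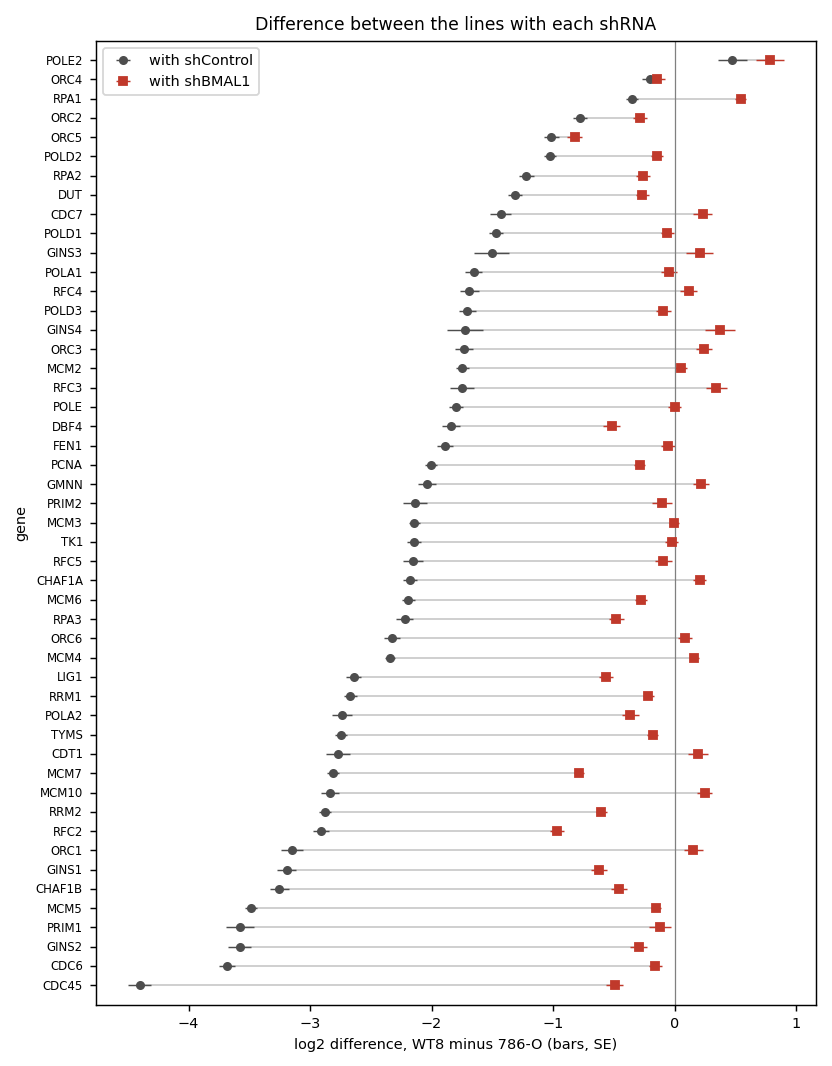
Log2 difference between the lines (WT8 minus 786-O) for each of the 49 genes with shControl (grey circles) and with shBMAL1 (red squares), with bars for the SE and genes ordered by the difference with shControl. With shControl the differences run from -4.40 for CDC45 to 0.48 for POLE2, and with shBMAL1 all lie between -0.97 and 0.78.

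Members with and without E2F-type letters in the start region are given side by side, with no test. In WT8 the 18 genes with the letters had a median log2 change with shBMAL1 of 2.17 (0.56 to 3.78) and the 25 without them 2.00 (0.06 to 3.81). CDC45 and PRIM1, with changes of 3.81 and 3.15, held none of these letters, while POLE2, with 0.56, did. Only these exact letters were searched, so a gene without them may still hold an E2F site, and no conclusion on E2F is drawn. The 6 genes with CACGTG had a median of 2.15 in WT8 and of 0.07 in 786-O, against 2.05 and 0.06 for the 37 without it.

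Other genes of replication, listed by role but with earlier results of these data known, are given by the same edgeR fit. For the counts in WT8 that follow, 32.9% of all genes tested were called higher there and 36.9% lower. Of 20 further fork factors, 18 rose and 1 fell with shBMAL1 in WT8. CLSPN, the checkpoint adaptor claspin, rose most, from 5.44, 6.56 and 6.17 to 78.3, 78.9 and 80.9 CPM (log2 change 3.71, SE 0.07, adjusted p = 8.75e-32). The fall was that of POLD4, the smallest subunit of polymerase delta (log2 change -0.48, SE 0.06, adjusted p = 4.15e-08), so the 4 polymerase delta genes did not move together. The count of falls became 2 with DESeq2, with totals without TMM, and by edgeR without replicate 1 of WT8 shControl or replicate 3 of WT8 shBMAL1, and the test for a change over 1.5-fold left 0 falls. Of 13 further regulators of origin firing, 12 rose and 1 fell. DTL, which directs CDT1 to destruction, rose from 5.11, 4.87 and 4.59 to 51.5, 51.98 and 52.9 CPM (log2 change 3.42, SE 0.07, adjusted p = 3.87e-30), and LRWD1, a protein that binds ORC, fell from 51.7, 56.2 and 58.7 to 29.7, 26.6 and 27.4 CPM (log2 change -0.99, SE 0.06, adjusted p = 1.56e-16). All 8 further chromatin assembly genes rose in WT8, led by UHRF1, the partner of the maintenance methyltransferase (log2 change 1.97, SE 0.07, adjusted p = 3.09e-23).

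Among 13 further genes of nucleotide synthesis, 9 rose and 2 fell in WT8, with a median log2 change of 0.34. Over all genes, 32.9% were called higher and 36.9% lower there. SAMHD1, the enzyme that breaks deoxynucleotides down, fell in WT8 from 34.8, 32.9 and 32.6 to 21.7, 22.2 and 19.8 CPM (log2 change -0.65, SE 0.08, adjusted p = 1.89e-09) and in 786-O from 29.9, 29.8 and 33.4 to 15.5, 16.2 and 18.2 CPM (log2 change -0.90, SE 0.08, adjusted p = 7.24e-12). RRM1, RRM2 and TYMS, which make deoxynucleotides, thus rose in WT8 where SAMHD1 fell. In 786-O the further lists gave 4 higher and 4 lower of 20 fork factors, 3 and 3 of 13 firing regulators, 3 and 6 of 13 nucleotide genes, and 4 and 0 of 8 chromatin genes (the 0 also with DESeq2), while 24.5% of all genes were called higher and 24.4% lower. The fork factors called higher dropped to 2 without any 1 of the 6 libraries of 786-O but replicate 2 of 786-O shControl, and those called lower to 2 without replicate 1 of 786-O shControl or of 786-O shBMAL1. The chromatin genes called higher dropped to 2 without replicate 2 or 3 of 786-O shControl, and 1 was called lower without that replicate 3. Named by the largest change, these were DONSON (0.25) and TIPIN (-0.27), CCNE1 (0.38) and LRWD1 (-0.39), NME1 (0.27) beside SAMHD1, and NASP (0.29), all log2 changes called by edgeR.

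**Figure D5:**
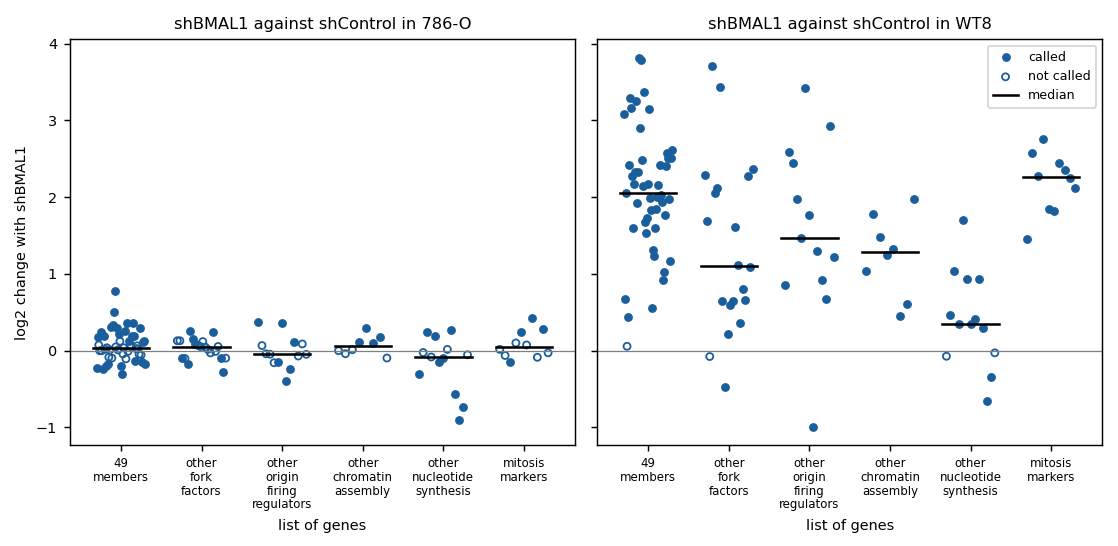
Log2 change with shBMAL1 in 786-O (left) and in WT8 (right) for the 49 genes, for 4 lists of other replication genes and for 10 mitosis markers, with filled points for genes called at an adjusted p under 0.1, open points for the others and a bar at the median. In WT8 the medians run from 0.34 for the other nucleotide synthesis genes to 2.26 for the mitosis markers, and in 786-O all lie close to 0.

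Markers of mitosis moved with the replication genes. The 10 markers (MKI67, TOP2A, CCNB1, CDK1, CCNA2, PLK1, BUB1, AURKA, AURKB and CDC20) summed to 2435 to 2531 CPM in 786-O shControl, 2531 to 2633 CPM in 786-O shBMAL1, 568 to 599 CPM in WT8 shControl and 2519 to 2539 CPM in WT8 shBMAL1. All 10 rose with shBMAL1 in WT8 (median log2 change 2.26), with CCNA2 highest (log2 change 2.76, SE 0.07, adjusted p = 1.53e-25), and all 10 were lower in WT8 than in 786-O with shControl. In 786-O 3 rose, with CDK1 first (log2 change 0.42, SE 0.05, adjusted p = 2.53e-08), and 1 fell, BUB1 (log2 change -0.14, SE 0.04, adjusted p = 0.00556), or 2 without replicate 3 of 786-O shControl or replicate 1 of 786-O shBMAL1. Of all genes tested, 24.5% were called higher and 24.4% lower in 786-O, and 32.9% higher and 36.9% lower in WT8. Between the lines with shControl, 40.2% of all genes were called lower in WT8. The part of the share of cycling cells in the replication gene differences was not tested. The total counts of WT8 shControl were the lowest of the 4 groups and its number of genes with at least 10 counts the highest, at 15862 to 15953 against 15127 to 15370 elsewhere, and the part of these in the result was not tested.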

How the data were processed

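The labels describe stranded mRNA libraries, and the study's methods paired-end sequencing, mapping to GRCh37 with SeqMan NGen and ArrayStar, and DESeq2. The submitters' processing notes name STAR, DESeq2 and hg38, and which route made the table is not given in the sources used here. The values are estimated counts that the authors deposited as total reads per gene, not normalized, in 38074 rows. A stand-in of 0.028 for zero (47.0% of values) was set to 0, after which 3.01% of all values were not whole. All were rounded, and 45 names on 98 rows were summed. Handling of strand, of reads mapping to several places and of read mates is not stated. If both mates were counted, the counts overstate the depth.

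From these values, edgeR 4.0.16 in R 4.3.3 (with limma 3.58.1) was run with filterByExpr, TMM factors, a model of 4 group means over all 12 libraries, robust quasi-likelihood F tests and Benjamini-Hochberg adjustment over 16838 genes, with calls at an adjusted p under 0.1. The SE of a log2 change was taken as its absolute value over the root of its F statistic. The filter removed 10087 of 26925 genes with a count, and no member. The biological coefficient of variation was 5.70%. Replicates differed by more than counting noise (chi-square per gene 4.51 to 12.6), so no library was counted as a copy of another. The fit was tested on simulated counts in which few genes changed and only in a single group. In these data far more genes were called, so that test does not give the error rate here. DESeq2 1.42.0 and other settings were alternatives. The members and the gene lists were chosen with earlier results of these data known. Full statistics were given, within each role, for the called gene with the largest change in each shBMAL1 comparison (mean of at least 50 counts), for called genes against the main direction, and for the largest rise and fall in each other list. ORC4, RPA1 and the genes of the largest deficits between the lines with shBMAL1 were singled out after their values were seen. Gene lengths came from GENCODE v44 lifted to GRCh37 and start regions from RefSeq on GRCh38.p14. Some single-gene results of these lists are not reported here.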

Additional observations from a re-analysis of the deposited data

Results flagged for a closer look

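The change with shBMAL1 differed between the lines for 47 of the 49 replication genes, by the interaction term of the edgeR model. Among the genes given with full statistics, the log2 change in WT8 exceeded that in 786-O by 3.91 for CDC45, 3.53 for CDC6, 3.46 for PRIM1, 3.30 for ORC1, 2.79 for CHAF1B, 2.51 for MCM4, 2.37 for POLA2, 2.28 for RRM2, 2.12 for TK1, 2.08 for LIG1, 2.06 for RFC5, 2.025 for MCM7, 1.80 for MCM2, 1.71 for GINS3 and 0.88 for POLD2. In each of these the 3 WT8 shBMAL1 libraries lay above the 3 WT8 shControl libraries. This adds no support, because the genes were picked by their calls in the same libraries. The share of all genes with such a separation was not counted. The WT8 shControl libraries enter all of these differences.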

How the results depend on the processing

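The rise of 48 members with shBMAL1 in WT8 and the deficit of 48 members in WT8 with shControl were found under each of the 9 other settings, except that the test for a change over 1.5-fold gave 46 in each and totals without TMM lost ORC4 between the lines. With the test for a change over 1.5-fold, 0 members were called higher and 0 lower in 786-O, 0 were higher in WT8 with shControl, and with shBMAL1 1 was higher and 3 were lower in WT8, because that test asks for a larger change. With total counts and no TMM factors the median log2 difference between the lines was -2.02 with shControl and -0.00135 with shBMAL1, while the median of all genes was 0.12 and 0.11 in place of 0.00057 and 0.0049. Under that scaling, with shBMAL1, MCM3 and POLE changed sign, from -0.01 ± 0.04 and -0.00 ± 0.05 (SE) to 0.10 each, and both were then called by edgeR (adjusted p = 0.0376 for MCM3 and 0.0727 for POLE). DESeq2 left 17 rises and 9 falls in 786-O and 46 called differences of change between the lines. The per-kilobase order of MCM2 to MCM6 changed with the transcript length used, a comparison chosen after seeing the data.

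Leaving out 1 library at a time gave 14 to 18 members higher and 7 to 11 lower in 786-O (median 0.01 to 0.05), 48 and 0 in WT8 (median 2.05 to 2.10), 1 and 48 between the lines with shControl (median -2.15 to -2.12), 10 to 14 and 22 to 24 between the lines with shBMAL1 (median -0.13 to -0.09), and 46 to 48 and 0 for the difference of change (median 2.01 to 2.07). With the replicate number as a block, 17 members rose and 9 fell in 786-O, CDT1 being lost (adjusted p = 0.109 by edgeR), the medians were 0.04 in 786-O and 2.05 in WT8, and no other count changed. Libraries with the same number correlated at -0.046 to 0.048 in their deviations from the group means and those with different numbers at -0.044 to 0.051, so the numbers were not taken as pairs. No power was computed, so members of 786-O that were not called may have changed by small amounts.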
